A study of Dascyllus aruanus with 17 samples.

Results

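The REV-ERB and ROR nuclear receptors were described in whole-brain RNA of the damselfish Dascyllus aruanus, a small reef fish that lives in groups on branching coral. A feature in these data is a gene assembled from the reads without a genome, and a feature was taken where the deposited annotation named it NR1D1, NR1D2, RORA or RORB, ignoring case. Such a name was carried by 20 annotated features, and 6 of them are among the 21805 features of the count table: 1 of 4 named NR1D1, 2 of 11 named NR1D2, 2 of 4 named RORA and the single one named RORB. The other 14 have an annotation and no row in the count table, and they were not analysed here. All 6 counted features passed the filter on low counts.

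Messenger RNA of single brains was sequenced from wild fish of 6 colonies that were caught with their host coral, habituated for 96 h and then treated for 72 h. ALAN (artificial light at night) was weak white illumination through the hours of natural darkness, and control colonies kept the natural cycle of light and dark. Brains were taken after 3 nights, late in the dark phase at ZT23 (zeitgeber time in hours, 1 h before sunrise) or late in the light phase at ZT11 (1 h before sunset). The groups were ALAN night (n = 4), control night (n = 4), ALAN day (n = 3) and control day (n = 3, numbered 1, 2 and 4). No strain, genotype, sex or age is given for any group, and the fish are wild animals in all 4 groups. Light was applied to whole colonies and the sources used here do not tie a fish to its colony, so colony and treatment cannot be told apart. The p-values treat every fish as independent.

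Library totals were 14942952 to 23051193 counts. Defining markers of neurons were present in all 14 libraries, with SYT1, a synaptic vesicle protein, at 162 to 322 CPM (counts scaled to a common library total) and ELAVL3, a neuronal RNA-binding protein, at 94.96 to 115 CPM. Photoreceptor markers, of which 25 of 34 symbols were found, summed to 2137 CPM in control night replicate 4, 472 CPM in control night replicate 2 and 412 CPM in control day replicate 1, against 75.6 to 171 CPM in the other 11 libraries. Of the defining photoreceptor markers, GNAT2 was at 0 in 1 library and GNAT1 was at 0.811 to 107 CPM. Some of the results that use these 3 brains are also given without them. In whole-brain RNA, fewer cells of a type and less RNA per cell cannot be told apart.

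REV-ERB alpha (NR1D1) and REV-ERB beta (NR1D2) are receptors that bind haem and repress transcription, and the ROR receptors, RORA and RORB among them, bind the same short DNA element and activate it. In mammals the Bmal1 promoter carries this element, and the NR1D genes are in turn switched on by the CLOCK and BMAL1 proteins through E-box elements, so that the receptors form an auxiliary loop of the circadian clock. In mice RORA is needed for Purkinje cells of the cerebellum, and RORB is best known from the retina, the pineal gland and sensory regions of the brain. Teleost fish often carry several copies of such genes, and the files do not say which copy a feature is.

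The first question the design poses is whether these receptors differed between late night and late day under the natural cycle. NR1D1 and both NR1D2 features stood higher in control night than in control day brains, and no feature named RORA or RORB passed the test. A feature described as ROR-beta-like but outside the name rule, DN8914_c0_g1, was lower at night (log2 fold change −4.71, adjusted p 2.58e-09 by edgeR) and is described further below. NR1D1 (feature DN2396_c0_g2) was at 131, 153, 95.6 and 115 CPM in the control night brains, against 1.29, 0.489 and 2.22 CPM in the control day brains. The groups are far apart, and the lowest day brain, control day replicate 2, rested on only 8.75 expected counts of the 16671.63 over all libraries. The night level was 92.8-fold the day level (95% interval 43.7 to 197), which is 6.54 on the log2 scale (SE 0.505, adjusted p 5.26e-06 by edgeR).

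NR1D2 is counted in a pair of features. The feature DN1975_c0_g1 was at 97.6, 116, 138 and 98.0 CPM in the control night brains, against 15.2, 20.7 and 35.4 CPM in the control day brains, and the log2 fold change was 2.24 (SE 0.246, adjusted p 0.000195 by edgeR). The feature DN9051_c0_g1 was at 121, 136, 126 and 132 CPM in the control night brains, against 25.6, 34.5 and 37.3 CPM in the control day brains. Its log2 fold change was 1.99 (SE 0.147, adjusted p 3.21e-06 by edgeR). Every night brain was above every day brain for both features, as was so for 6.59% of all features in this direction. The fitted differences were 4.72-fold (95% interval 3.27 to 6.80) and 3.96-fold (3.18 to 4.93), and neither interval overlaps that of NR1D1. The 3 REV-ERB features called are 3 of the 6 members, beside 2.07% of the 20782 features tested that were called in this comparison and 1.07% called higher at night.

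The features named RORA or RORB gave no call between control night and control day. RORA feature DN1311_c0_g1 was at 6.41, 8.26, 14.5 and 12.5 CPM in control night brains, against 8.68, 11.5 and 7.19 CPM in control day brains, and the groups overlapped (log2 fold change 0.19, 95% interval −0.50 to 0.89, adjusted p 0.848 by edgeR). RORB feature DN1311_c1_g3 was at 17.2, 18.9, 20.9 and 19.5 CPM at night, against 17.4, 16.9 and 16.9 CPM by day, with a log2 fold change of 0.16 and the narrowest interval of the 6 features, −0.11 to 0.44. A night to day difference of RORB larger than 1.36-fold in either direction lies outside that interval. The other RORA feature, DN4406_c0_g1, was at 1.04, 0.801, 2.05 and 1.28 CPM in control night brains, against 0.574, 0.652 and 0.175 CPM in control day brains. Its groups did not overlap, as was so for 6.59% of all features in this direction, but its log2 fold change of 1.46 had an interval of −0.17 to 3.09 and an edgeR adjusted p of 0.400. It holds 293.88 expected counts over all 14 libraries.

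**Figure D1:**
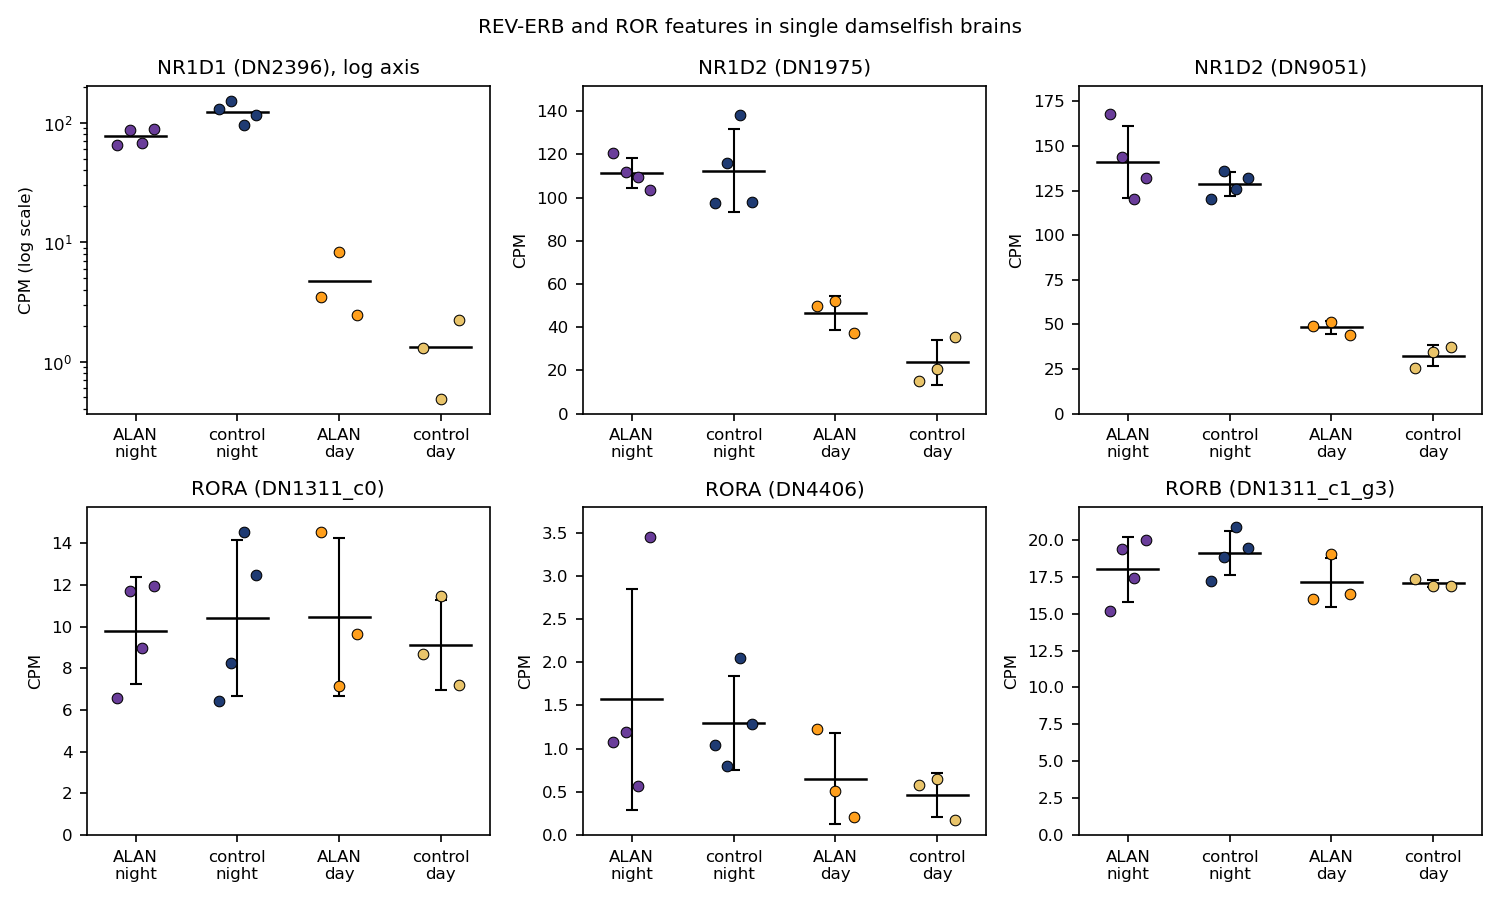
CPM of the 6 features in each brain (points), by group, with group means (lines) and SD (bars, except in the NR1D1 panel, which has a log axis). The night brains lie above the day brains for NR1D1 and both NR1D2 features, from 64.6 CPM upward for NR1D1 at night to at most 8.27 CPM by day, whereas the ROR panels overlap or nearly so.

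Under ALAN the same 3 REV-ERB features were higher at night than by day. NR1D1 was at 64.6, 87.8, 67.8 and 88.0 CPM in ALAN night brains, against 3.50, 8.27 and 2.44 CPM in ALAN day brains, which is 4.03 on the log2 scale (SE 0.431, adjusted p 0.000154 by edgeR) or 16.3-fold (95% interval 8.59 to 31.0). The NR1D2 feature DN9051_c0_g1 was at 168, 144, 120 and 132 CPM in ALAN night brains, against 49.3, 51.3 and 44.3 CPM in ALAN day brains. Its log2 fold change was 1.55 (SE 0.143, adjusted p 4.04e-05 by edgeR). For DN1975_c0_g1 the ALAN night brains held 121, 112, 109 and 104 CPM, against 50.0, 51.9 and 37.5 CPM in ALAN day brains, and the log2 fold change was 1.26 (SE 0.234, adjusted p 0.0169 by edgeR). The night and day brains were again apart for all 3, as was so for 5.72% of all features in this direction. In this comparison 1.03% of all features tested were called and 0.467% were called higher at night. The call of DN1975_c0_g1 rests on few brains, since its adjusted p was 0.0668 without ALAN day replicate 1, 0.0525 without replicate 2 and 0.0946 without replicate 3.

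The features named RORA or RORB again gave no call under ALAN. RORA DN1311_c0_g1 was at 6.56, 11.7, 8.99 and 11.96 CPM in ALAN night brains, against 14.6, 7.13 and 9.66 CPM in ALAN day brains (log2 fold change −0.09, 95% interval −0.78 to 0.60). RORB was at 15.2, 19.4, 17.4 and 20.01 CPM in ALAN night brains, against 16.0, 19.1 and 16.4 CPM in ALAN day brains (log2 fold change 0.07, 95% interval −0.20 to 0.35). RORA DN4406_c0_g1 was at 1.08, 1.19, 0.568 and 3.45 CPM in ALAN night brains, against 1.23, 0.513 and 0.208 CPM in ALAN day brains, and 1 brain, ALAN night replicate 4, held the highest value of all 14. With both treatments averaged, the night to day log2 fold change was 5.28 (SE 0.332) for NR1D1, 1.75 (SE 0.169) for DN1975_c0_g1 and 1.77 (SE 0.103) for DN9051_c0_g1, and these 3 of 6 members were called beside 4.34% of all features, or 2.23% higher at night. RORB had an interval of −0.08 to 0.31 in that average and RORA DN1311_c0_g1 one of −0.44 to 0.54. RORA DN4406_c0_g1 gave 1.36 there with an interval of 0.22 to 2.49, which excludes no change before correction. It reached an unadjusted p of 0.0226 and an adjusted p of 0.187 by edgeR.

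**Figure D2:**
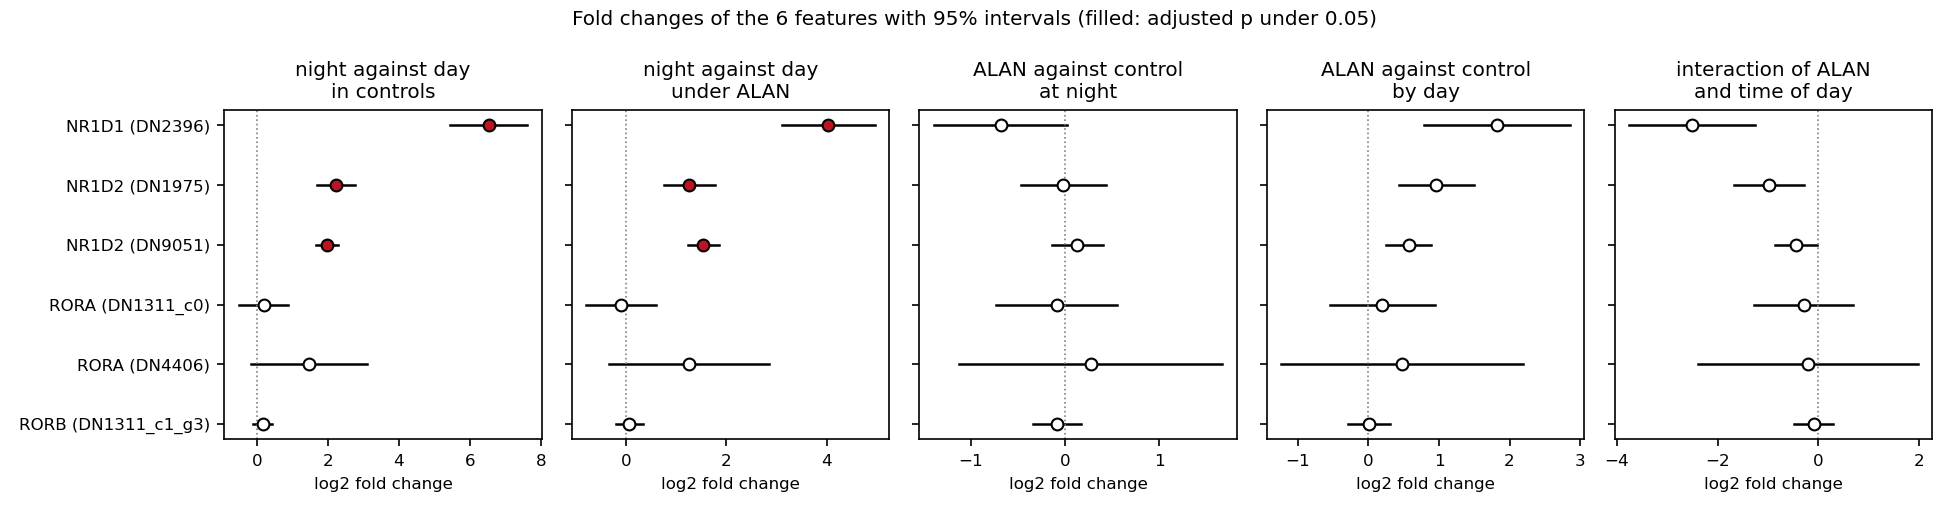
Log2 fold changes of the 6 features from the edgeR fit with 95% intervals in 5 comparisons, each panel with its own axis, filled where the adjusted p was under 0.05. The 3 REV-ERB features are filled in both comparisons of night with day, and no point is filled for ALAN against control or for the interaction.

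The second question is whether light at night changed these receptors late in the night itself. No member was called by edgeR or by DESeq2 between ALAN night and control night, and none had an unadjusted p under 0.05 (4.61% of all features had), in a comparison where edgeR called 0.0289% of all features and DESeq2 0.198%. NR1D1 averaged 77.0 ± 12.6 CPM in ALAN night brains and 124 ± 24.1 CPM in control night brains (SD, n = 4 each). All 4 ALAN night brains were below all 4 control night brains, as was so for 1.18% of all features, with a log2 fold change of −0.68 (SE 0.330, unadjusted and adjusted p 0.0585 and 1.00 by edgeR). That separation depends on the scaling: on CPM from library totals the ALAN night brains reached 94.8 CPM and the control night brains began at 93.9 CPM. Control night replicates 2 and 4 are among the 3 libraries with the most photoreceptor RNA. The log2 fold change of NR1D1 was −0.55 without those 3 libraries and −0.58 with the summed photoreceptor markers as a covariate.

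Both NR1D2 features overlapped between ALAN night and control night. DN1975_c0_g1 averaged 111 ± 7.02 CPM in ALAN night brains and 112 ± 19.2 CPM in control night brains (log2 fold change −0.01, 95% interval −0.46 to 0.43). DN9051_c0_g1 averaged 141 ± 20.2 CPM in ALAN night brains and 129 ± 6.72 CPM in control night brains (log2 fold change 0.13, 95% interval −0.14 to 0.40). As folds the intervals run from 0.725 to 1.35 for DN1975_c0_g1 and from 0.908 to 1.32 for DN9051_c0_g1. The ROR intervals at night were −0.34 to 0.17 for RORB, −0.73 to 0.55 for RORA DN1311_c0_g1 and −1.13 to 1.67 for RORA DN4406_c0_g1, so the last of these leaves room for large changes.

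The third question is whether the treatment left a difference late by day, when fish of both groups were in natural daylight. All 3 REV-ERB features were higher in every ALAN day brain than in every control day brain, in 3 of 6 members beside 5.33% of all features, but edgeR called none of them. NR1D1 averaged 4.74 ± 3.11 CPM in ALAN day brains and 1.33 ± 0.868 CPM in control day brains (SD, n = 3 each). The log2 fold change was 1.83 (SE 0.480, unadjusted and adjusted p 0.00204 and 0.411 by edgeR), or 3.54-fold with an interval of 1.73 to 7.25, and the closest brains were at 2.44 CPM in ALAN day replicate 3 and 2.22 CPM in control day replicate 4. NR1D2 DN1975_c0_g1 averaged 46.4 ± 7.85 CPM in ALAN day brains and 23.8 ± 10.5 CPM in control day brains (log2 fold change 0.96, SE 0.247, unadjusted and adjusted p 0.00171 and 0.384 by edgeR). NR1D2 DN9051_c0_g1 averaged 48.3 ± 3.65 CPM in ALAN day brains and 32.4 ± 6.09 CPM in control day brains (log2 fold change 0.57, SE 0.148, unadjusted and adjusted p 0.00183 and 0.384 by edgeR). The differences of the 3 features are thus 1.49-fold to 3.54-fold in the fitted means.

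The call by day depends on the tool. DESeq2 called all 3 REV-ERB features by day, with adjusted p of 0.0112 for NR1D1, 0.0320 for DN1975_c0_g1 and 0.0494 for DN9051_c0_g1, in a comparison where it called 0.680% of all features and 0.187% higher under ALAN, while edgeR called 0.00481%. An unadjusted edgeR p under 0.05 was found for 3 of 6 members, beside 6.92% of all features. Without ALAN day replicate 2 the log2 fold change of NR1D1 was 1.16, and without control day replicate 4 it was 2.45. RORB gave 17.1 ± 1.67 CPM in ALAN day brains and 17.0 ± 0.265 CPM in control day brains, with an interval of −0.29 to 0.30 on the log2 scale. RORA DN1311_c0_g1 gave 10.4 ± 3.77 CPM in ALAN day brains and 9.11 ± 2.17 CPM in control day brains, with an interval of −0.55 to 0.94.

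Markers of other tissues varied among the day brains, and in each list given here the ranges of the day groups overlapped. The summed pituitary markers (4 of 8 symbols found) were 845, 1357 and 76.7 CPM in ALAN day brains, against 64.3, 104 and 65.7 CPM in control day brains, with growth hormone GH1 between 14.9 and 1175 CPM in ALAN day brains and between 0.702 and 43.1 CPM in control day brains. Summed muscle markers were 446 to 651 CPM in ALAN day brains and 401 to 1438 CPM in control day brains, and summed liver markers were 126 to 385 CPM in ALAN day brains and 339 to 936 CPM in control day brains. Summed blood markers were 3561 to 5852 CPM in ALAN day brains and 1682 to 6051 CPM in control day brains. The part of these tissues in the day difference was not tested. With the 3 libraries richest in photoreceptor RNA left out, the day log2 fold changes were 1.80 for NR1D1, 0.72 for DN1975_c0_g1 and 0.42 for DN9051_c0_g1.

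The fourth question is whether the effect of light at night differed between the times, which is the same as asking whether the night to day contrast differed between treatments. The NR1D1 contrast was 4.03 under ALAN and 6.54 in controls on the log2 scale, a difference of −2.51 (SE 0.582, 95% interval −3.76 to −1.25). Its unadjusted edgeR p of 0.000782 stood at rank 23 of the 20782 features, and its adjusted p was 0.596, in a comparison where edgeR called 0% of all features. DESeq2 called NR1D1 with an adjusted p of 0.00826, beside 0.271% of all features. ALAN brains lay below control brains in every night library and above them in every day library for NR1D1, a pattern held by 12 features or 0.0577% of those tested, and by 4 features without NR1D1 on CPM from library totals.

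NR1D2 had smaller interaction terms of the same sign. The difference was −0.98 (SE 0.323, unadjusted and adjusted p 0.00934 and 0.685 by edgeR) for DN1975_c0_g1 and −0.44 (SE 0.195, unadjusted and adjusted p 0.0409 and 0.776 by edgeR) for DN9051_c0_g1. Without the 3 libraries richest in photoreceptor RNA that of DN9051_c0_g1 was −0.23. An unadjusted p under 0.05 was found for 3 of 6 members, beside 6.15% of all features. The interaction intervals were −1.27 to 0.70 for RORA DN1311_c0_g1, −2.39 to 1.98 for RORA DN4406_c0_g1 and −0.48 to 0.30 for RORB. Averaged over both times, ALAN against control gave a log2 difference of 0.35 (SE 0.0974, unadjusted and adjusted p 0.00291 and 0.396 by edgeR) for DN9051_c0_g1, 0.47 (SE 0.161, unadjusted and adjusted p 0.0111 and 0.657 by edgeR) for DN1975_c0_g1 and 0.57 (SE 0.290, unadjusted and adjusted p 0.0697 and 0.922 by edgeR) for NR1D1. The NR1D1 value was 0.24 without ALAN day replicate 2, 0.37 without control day replicate 2 and 0.89 without control day replicate 4. No member was called there by edgeR or DESeq2, beside 0.00481% and 0.744% of all features, and 2 of 6 had an unadjusted edgeR p under 0.05, beside 5.71% of all features.

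Among the groups the means ran in the order control night, ALAN night, ALAN day and control day for NR1D1, for NR1D2 DN1975_c0_g1 and for RORB. It was ALAN night, control night, ALAN day and control day for NR1D2 DN9051_c0_g1 and for RORA DN4406_c0_g1. For RORA DN1311_c0_g1 it was ALAN day, control night, ALAN night and control day. No neighbours in the order overlap for NR1D1 on TMM-scaled CPM, while on CPM from library totals its night groups overlap. For the NR1D2 features the night groups are neighbours that overlap, and the ALAN day group stands apart from both the night groups above it and the control day group below it. Of all features, 1.18% had every ALAN night brain below every control night brain. ALAN night lay above ALAN day without overlap in 5.72% of all features, and ALAN day above control day in 5.33%. All neighbours overlap for both RORA features and for RORB. Among the REV-ERB features the spread among brains of a group was widest for NR1D1 by day, with a coefficient of variation of 65.5% in ALAN day brains and 65.0% in control day brains, beside 16.3% in ALAN night brains and 19.5% in control night brains. RORA DN4406_c0_g1 varied more, with 81.5% in ALAN night brains and 80.8% in ALAN day brains. The narrowest of the REV-ERB spreads was 5.23%, for DN9051_c0_g1 in control night brains.

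Both NR1D2 features moved closely together over the brains, with a Pearson r of log2 CPM of 0.967 over 14 libraries. All such values rest largely on the split between night and day libraries. The ratio of DN1975_c0_g1 to DN9051_c0_g1 was 0.719 to 0.908 in ALAN night brains and 0.743 to 1.10 in control night brains. By day the ratio was 0.846 to 1.01 in ALAN brains, against 0.594, 0.602 and 0.951 in control brains, so the ranges overlapped in both pairs of groups. NR1D1 correlated with r of 0.949 and 0.963 with the NR1D2 features, while the r between RORA DN1311_c0_g1 and NR1D1 was −0.01 and that between RORB and NR1D1 was 0.49. The named features with the highest r to NR1D1 were znf395 (0.973), SMU1 feature DN1335_c1_g1 (0.970) and ADAMTS5 (0.970). DN9051_c0_g1 was closest to ciart (0.974), PER1 (0.969) and the same SMU1 feature (0.968), and DN1975_c0_g1 was closest to DN9051_c0_g1, KDM2A (0.955) and NR1D1 (0.949). The ciart and PER1 genes encode repressors of the CLOCK and BMAL1 proteins.

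The textbook targets of the shared response element mostly ran opposite to the REV-ERB features. Of 11 features tested for the activators ARNTL (BMAL1), ARNTL2 (BMAL2), CLOCK and NPAS2, the repressor NFIL3 and the cryptochrome CRY1, 4 were lower and 1 was higher at night under ALAN, and likewise 4 lower and 1 higher in controls, beside 0.563% and 1.00% of all features lower at night. The median log2 fold change was −1.75 under ALAN and −2.11 in controls, while over all features tested it was 0.00 under ALAN and 0.01 in controls. Averaged over both treatments, 7 were lower and 1 was higher, where 2.11% of all features were lower and 2.23% higher. The higher one in each case was CRY1 (feature DN1907_c0_g2), with log2 fold changes of 2.37 under ALAN and 1.97 in controls; a feature named Cry2 shares its assembly component, so reads may be divided between them.

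Among the features lower at night, NFIL3, a repressor of clock-controlled genes, averaged 2.00 ± 0.404 CPM in control night brains, against 11.7 ± 1.74 CPM in control day brains (log2 fold change −2.55, SE 0.235, adjusted p 3.79e-05 by edgeR). The ARNTL2 feature DN6179_c0_g1 averaged 8.82 ± 3.19 CPM in control night brains, against 37.9 ± 3.35 CPM in control day brains (log2 fold change −2.11, SE 0.238). The 2 others called in controls were CLOCK DN2765_c0_g2 (−3.41, SE 0.368) and NPAS2 DN4378_c0_g1 (−2.28, SE 0.393), whose proteins pair with BMAL1. Without the 3 libraries richest in photoreceptor RNA the adjusted p of NPAS2 DN4378_c0_g1 was 0.192. The other CLOCK features were lower at night in controls by less and were not called by edgeR. They were DN1042_c1_g2 (−0.45, adjusted p 0.402), DN11652_c0_g1 (−0.71, adjusted p 0.125) and DN7558_c4_g1 (−1.43, adjusted p 0.110). NPAS2 DN25099_c1_g1 gave −2.41 in controls, also without a call (adjusted p 0.176 by edgeR). The single ARNTL feature, for BMAL1, averaged 2.42 ± 1.31 CPM in control night brains, against 10.97 ± 3.78 CPM in control day brains, and missed the threshold (log2 fold change −2.17, SE 0.538, adjusted p 0.0575 by edgeR). Under ALAN it averaged 4.64 ± 2.37 CPM at night and 15.6 ± 8.74 CPM by day (log2 fold change −1.75, SE 0.525, adjusted p 0.178 by edgeR). DESeq2 called ARNTL under ALAN (adjusted p 0.0391) and in controls (0.00260), and edgeR called it in controls without ALAN day replicate 2 (0.0423). With ARNTL included, DESeq2 called 3 target features under ALAN and 4 in controls that edgeR did not call. Over all features DESeq2 also called more, with 3.18% under ALAN and 5.57% in controls, beside 1.03% and 2.07% by edgeR. The other ARNTL2 feature, DN3530_c0_g1, gave 0.36 in controls with an edgeR adjusted p of 0.502.

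None of the 11 target features was called by edgeR for ALAN against control at night or by day, where 0.0289% and 0.00481% of all features were called. An unadjusted edgeR p under 0.05 was found for 1 of the 11 in each, beside 4.61% of all features at night and 6.92% by day. At night this was CRY1, at 52.4 ± 7.10 CPM in ALAN night brains and 34.7 ± 9.03 CPM in control night brains (log2 fold change 0.60, SE 0.182, unadjusted and adjusted p 0.00579 and 0.920 by edgeR). By day it was ARNTL2 DN3530_c0_g1, at 26.9 ± 6.07 CPM in ALAN day brains and 18.2 ± 6.75 CPM in control day brains (log2 fold change 0.57, SE 0.237, unadjusted and adjusted p 0.0325 and 0.657 by edgeR). The ARNTL feature gave a log2 difference of 0.92 (SE 0.505) at night and 0.50 (SE 0.559) by day.

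**Figure D3:**
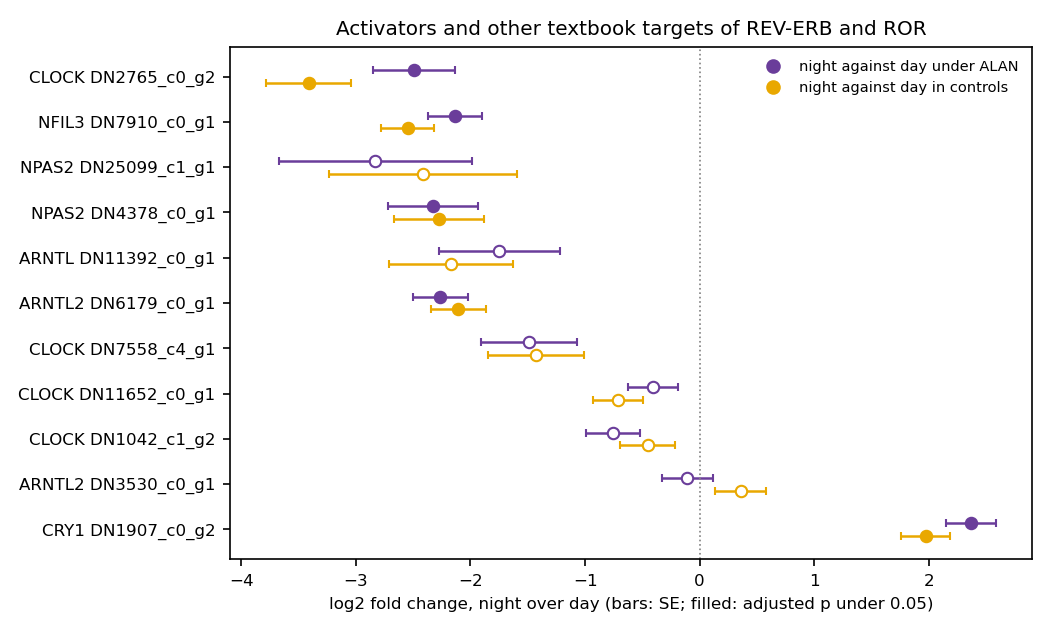
Night over day log2 fold changes (points) with SE (bars) of the 11 features of the activators and other textbook targets, under ALAN and in controls, filled where the edgeR adjusted p was under 0.05. All but 2 of the points in controls lie below 0, and CRY1 lies at 2.37 under ALAN and 1.97 in controls.

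The E-box genes share the activator of the NR1D genes, and with both treatments averaged 10 of their 16 tested features were called higher at night and 1 lower, beside 2.23% and 2.11% of all features. Within treatments 7 were higher and 0 lower at night under ALAN (all features 0.467% and 0.563%), and 7 were higher and 1 was lower in controls (all features 1.07% and 1.00%), with medians of 1.18 under ALAN and 1.14 in controls. PER3, a period repressor, averaged 98.4 ± 11.2 CPM in control night brains, against 8.39 ± 0.508 CPM in control day brains (log2 fold change 3.55, SE 0.126, adjusted p 2.58e-09 by edgeR). PER1 averaged 94.95 ± 18.1 CPM in control night brains, against 3.23 ± 0.256 CPM in control day brains (log2 fold change 4.87, SE 0.260), and BHLHE41, the repressor DEC2, gave 3.46 (SE 0.173). The ciart feature DN72205_c0_g1 averaged 65.0 ± 25.2 CPM in control night brains, against 0.170 ± 0.182 CPM in control day brains, and its log2 fold change of 8.44 (SE 0.505) was larger than the 6.54 of NR1D1. Its control day level is very low, and with 1 library left out the fold change lay between 8.02 and 9.84. Under ALAN ciart gave 5.95 (SE 0.409). For ALAN against control none of the 16 was called by edgeR at night (0.0289% of all features) or by day (0.00481%). An unadjusted p under 0.05 was found for 2 of 16 at night (4.61% of all features), 2 by day (6.92%) and 4 for the interaction (6.15%). The interaction of ciart was −2.49 (SE 0.670, unadjusted and adjusted p 0.00242 and 0.596 by edgeR), with 0.986 ± 0.312 CPM in ALAN day brains beside the 0.170 CPM of control day brains. PER3 gave 0.15 (SE 0.0995) at night and −0.03 (SE 0.123) by day, and BHLHE41 gave −0.17 (SE 0.138) at night.

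Genes that act with the receptors were also compared between night and day. Of 8 features of the co-repressor complex (NCOR1, HDAC3, TBL1X, TBL1XR1 and GPS2), through which REV-ERB represses, 1 was called in each treatment, beside 1.03% of all features under ALAN and 2.07% in controls. It was TBL1X, lower at night, with −0.54 on the log2 scale (SE 0.0998, adjusted p 0.0156 by edgeR) under ALAN and −0.58 (adjusted p 0.00714) in controls. Without the 3 libraries richest in photoreceptor RNA its adjusted p was 0.0573 under ALAN and 0.230 in controls. The call of TBL1X under ALAN was also lost without ALAN night replicate 3 (adjusted p 0.0600 by edgeR), ALAN day replicate 1 (0.0823) or ALAN day replicate 3 (0.0687). Fitted with only the groups of the contrast, the adjusted p was 0.0957 under ALAN and 0.0616 in controls. HDAC3, the histone deacetylase of the complex, gave −0.07 under ALAN (adjusted p 0.960 by edgeR) and 0.51 in controls (adjusted p 0.366). Of 25 features of co-activators (the NCOA and PPARGC1 families, EP300 and CREBBP), edgeR called 0 under ALAN and 0 in controls, with an unadjusted p under 0.05 for 2 in each, where 11.1% and 14.6% of all features had one.

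Of 13 tested features for making and breaking down haem, the ligand of REV-ERB, edgeR called 0 under ALAN and 0 in controls. Over all features it called 1.03% and 2.07%. In each treatment 1 of the 13 had an unadjusted p under 0.05, beside 11.1% of all features under ALAN and 14.6% in controls. For ALAN against control at night 3 of the 13 had one, beside 4.61% of all features. In that comparison 6 of the 13 fold changes were positive, with a median of −0.05 on the log2 scale. Of those 3 with an unadjusted p under 0.05, only HMOX1 is described here. HMOX1, the inducible haem oxygenase, averaged 9.76 ± 3.09 CPM in ALAN night brains and 5.06 ± 3.26 CPM in control night brains (log2 fold change 0.95, SE 0.433, unadjusted and adjusted p 0.0469 and 1.00 by edgeR). Of 13 features that act on REV-ERB protein stability (GSK3A, GSK3B, FBXW7, HUWE1, MYCBP2, SPSB1, SPSB4 and CDK1), edgeR called 0 under ALAN and 0 in controls, beside the same 1.03% and 2.07%. An unadjusted p under 0.05 was found for 0 under ALAN and 2 in controls, beside the same 11.1% and 14.6%. For ALAN against control, edgeR called none of these co-repressor, co-activator, haem or stability features at either time. Such calls were rare in the whole set tested (0.0289% at night, 0.00481% by day), so their absence here says little. Protein levels and ligand were not measured.

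The name rule leaves out 4 counted features that the annotation describes as members of the same families, and these were chosen after the annotation had been read. DN8914_c0_g1, described as ROR-beta-like, was at 4.04, 3.55, 4.53 and 4.41 CPM in control night brains, against 101, 118 and 107 CPM in control day brains. The log2 fold change was −3.91 (SE 0.163, adjusted p 1.14e-08 by edgeR) under ALAN, at rank 3 by p among all features tested. In controls it was −4.71 (SE 0.170, adjusted p 2.58e-09 by edgeR), at rank 2. The night and day brains were far apart in both treatments, in the direction opposite to the REV-ERB features. DN1311_c1_g1, named Hr46 after an insect receptor and described as a relative of the ROR receptors, was at 1.73, 3.002, 2.05 and 3.89 CPM in control night brains, against 26.8, 36.7 and 26.3 CPM in control day brains, with −2.89 (SE 0.261) under ALAN and −3.48 (SE 0.269) in controls.

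Under ALAN at night both of these day-high features stood higher than in controls, without a call. DN8914_c0_g1 was at 8.44, 5.72, 6.34 and 4.86 CPM in ALAN night brains, all above the control night brains, as was so for 1.32% of all features (log2 fold change 0.61, SE 0.152, unadjusted and adjusted p 0.00131 and 0.880 by edgeR). Hr46 averaged 4.41 ± 0.675 CPM in ALAN night brains and 2.67 ± 0.977 CPM in control night brains (log2 fold change 0.71, SE 0.250, unadjusted and adjusted p 0.0133 and 0.998 by edgeR), with overlap. Without the 3 libraries richest in photoreceptor RNA the value for Hr46 was 1.22 (adjusted p 0.789), and with the summed markers as a covariate it was 1.04. By day the log2 fold changes were −0.19 for DN8914_c0_g1 and 0.13 for Hr46. All 3 ALAN day brains of DN8914_c0_g1 (94.6, 91.5 and 99.0 CPM) lay below every control day brain, as in 5.35% of all features. On CPM from library totals these day groups overlapped. The interaction of DN8914_c0_g1 was 0.80 (SE 0.221, unadjusted and adjusted p 0.00286 and 0.596 by edgeR). That of Hr46 was 0.59 (SE 0.365, unadjusted p 0.130 by edgeR).

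The remaining pair of features, DN6756_c0_g1 and DN7722_c0_g1, is described as nuclear receptor group D, the REV-ERB group, with no gene name. DN6756_c0_g1 was at 25.8, 60.1, 37.2 and 48.5 CPM in ALAN night brains, against 98.9, 82.4, 62.8 and 68.2 CPM in control night brains. By day it was at 14.9, 23.9 and 22.8 CPM in ALAN day brains, against 13.7, 14.4 and 14.7 CPM in control day brains. Its ALAN brains lay below control brains at night and above them by day without overlap, as those of NR1D1 did, though not at night on CPM from library totals. Night against day was not called under ALAN by edgeR (1.064, SE 0.260, adjusted p 0.0800) and was called in controls (2.45, SE 0.276, adjusted p 0.000245 by edgeR). Under ALAN DESeq2 called it with an adjusted p of 0.00447, and so did edgeR without ALAN night replicate 1, with 1.25 and an adjusted p of 0.0185. The difference between those contrasts was −1.39 (SE 0.361, unadjusted and adjusted p 0.00191 and 0.596 by edgeR).

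DN7722_c0_g1 was at 59.4, 147, 96.0 and 112 CPM in ALAN night brains, against 194, 205, 146 and 216 CPM in control night brains. By day it was at 169, 118 and 165 CPM in ALAN brains, against 61.5, 100.04 and 79.1 CPM in control brains, so the ALAN group was lower at night, with 1 brain just inside the control range, and higher by day. The log2 fold change of ALAN against control was −0.87 (SE 0.240, unadjusted and adjusted p 0.00281 and 0.888 by edgeR) at night and 0.91 (SE 0.278, unadjusted and adjusted p 0.00589 and 0.491 by edgeR) by day. Its interaction of −1.78 (SE 0.368, unadjusted and adjusted p 0.000284 and 0.503 by edgeR) stood at rank 11 of all features, and DESeq2 called it with an adjusted p of 0.00333. Night against day was −0.54 (adjusted p 0.466 by edgeR) under ALAN and 1.25 (adjusted p 0.0286 by edgeR) in controls, and the call in controls was lost without control night replicate 1, 2 or 4 or control day replicate 1 or 4, with adjusted p of 0.0567 to 0.141, and without the 3 libraries richest in photoreceptor RNA, with 0.92 and an adjusted p of 0.452. With the summed photoreceptor markers as a covariate its adjusted p was 0.0604.

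**Figure D4:**
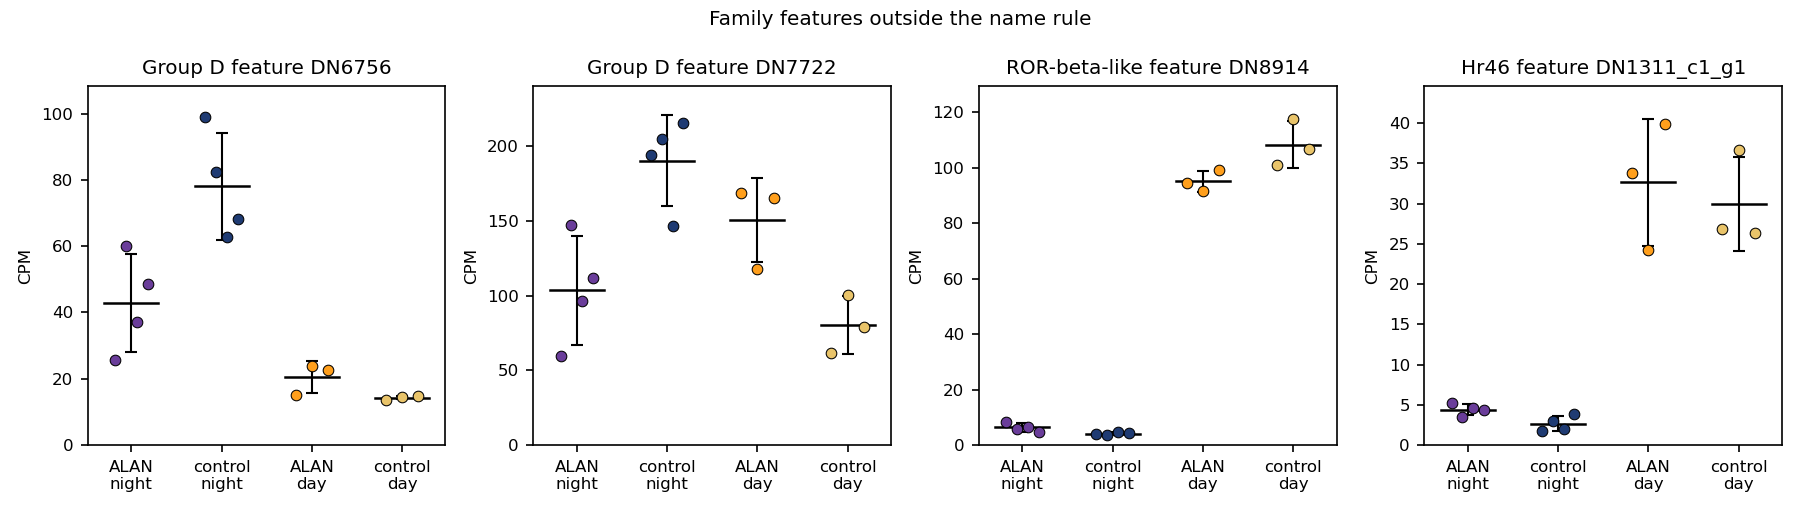
CPM of the 4 family features outside the name rule in each brain (points), by group, with means (lines) and SD (bars). Both group D features are lower in ALAN night than in control night brains and higher in ALAN day than in control day brains by their means, and the ROR-beta-like and Hr46 features are above 24 CPM in every day brain and at most 8.44 CPM in every night brain.

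RORB DN1311_c1_g3 and Hr46 DN1311_c1_g1 belong to 1 component of the assembly. RORA DN1311_c0_g1 and an NR1D1 fragment with no counts, DN1311_c2_g2, share only the prefix DN1311 with them. Components group contigs that share sequence, so reads may be divided between RORB and Hr46. Whether reads were also divided with RORA was not tested. The low time-of-day contrast of RORA DN1311_c0_g1 and RORB is given for the reads as the authors assigned them. The bit scores of the annotation matches were 285 for NR1D1, 629 and 552 for the NR1D2 features, 1005 and 661 for the RORA features and 938 for RORB, and those of the 14 features without counts were 44.7 to 261. With features of one name summed, night against day in controls gave 2.098 for NR1D2 and 0.29 for RORA on the log2 scale. Levels are not compared between features, since no feature lengths were used.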

How the data were processed

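The authors trimmed reads with Trimmomatic 0.39 and used Bowtie2 and RSEM, per the submitters' processing notes, which give no order or settings. The deposited table holds expected counts per assembled gene for 14 libraries. Whether reads with the same molecular identifier were collapsed is unknown here. The 3 stranded libraries made for the assembly have no counts and were not used. Names come from the authors' eggNOG-mapper 2.1.7 table, where the authors deposited a bit score and an E-value for each match. Groups were taken from sample titles.

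Expected counts were rounded. Features with enough counts by filterByExpr (minimum 10, total 15) were kept, 20782 of 21805, and 1023 were left out. TMM factors were 0.870 to 1.08. The edgeR 4.0.16 quasi-likelihood test (R 4.3.3) fitted 1 mean per group, with 10 residual degrees of freedom, and 7 contrasts were adjusted over all features by Benjamini and Hochberg at 0.05. Intervals are 95%. DESeq2 1.42.0 was an alternative. CPM use TMM-scaled library totals, and correlations use log2 CPM with a prior count of 2. The test was checked on simulated counts of independent libraries, only for night against day over both treatments. The contrasts of ALAN with control and the interaction were not checked in this way. Within groups, libraries correlated at 0.918 to 0.949, and none of the 18 pairs agreed within sampling noise (chi-square per feature 25.5 to 48.5). Replicate numbers gave no sign of pairing: with group means removed, same-numbered libraries correlated at −0.167 to 0.103 and differently numbered ones at −0.147 to 0.157. What the numbers stand for is not stated, and this comparison cannot show that pairing is absent.

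All 6 members are described; from each list the 4 features with the smallest adjusted p could be named, plus all activator and family features. The members and lists were chosen with earlier results of these data known. Alternatives were DESeq2, 2 other scalings, no filter, CPM above 1 in 3 libraries, a replicate block, only the groups of a contrast, features of one name summed, a photoreceptor covariate and each library left out; 1 further setting, the 3 libraries highest in photoreceptor markers left out, was chosen after seeing the data, as were the family features outside the name rule. The counts and p-values cover counting and brain-to-brain spread of these libraries only. No sequences were used. Some listed genes are not reported here and were left out of the counts for their lists.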

Additional observations from a re-analysis of the deposited data

Results flagged for a closer look

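NR1D1 was picked out because its response to ALAN ran in opposite directions at night and by day. The log2 difference between ALAN and control was −0.68 at night, with all 4 ALAN night brains below all 4 control night brains, and 1.83 by day, with all 3 ALAN day brains above all 3 control day brains. The separation at night was held by 1.18% of all features, that by day by 5.33% and both by 0.0577%. On CPM from library totals the night groups of NR1D1 overlapped. NR1D1 was picked by these values, so the difference between the night and day effects is not independent of the choice. The difference between these effects was −2.51 (SE 0.582), with an unadjusted edgeR p of 0.000782 and an adjusted p of 0.596, so it failed the correction over all features. Over 14 fits that each left out a library it lay between −3.13 (without control day replicate 4) and −1.84 (without ALAN day replicate 2). Single brains far from the rest of their group were looked for in 12 sets of values of the night groups and 0 were found, where chance gives about 1 in 20. The day groups, with 3 brains each, were too small for this check. By day NR1D1 was at 8.27 CPM in ALAN day replicate 2, against 3.50 CPM in replicate 1 and 2.44 CPM in replicate 3.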

How the results depend on the processing

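Between night and day the 3 REV-ERB features were called under all 24 alternatives in controls, counting summed NR1D2 for both its features. Under ALAN 3 were called except that 2 were called with the replicate block and without ALAN day replicate 1, 2 or 3: DN1975_c0_g1 gave 1.22 with an adjusted p of 0.0751 under the replicate block. The replicate block changed no other member call, but ended that of TBL1X under ALAN (adjusted p 0.0788) and of DN7722_c0_g1 in controls (0.0503), and 2 of 14 libraries correlated best with their own number. DESeq2 called 3 members for ALAN by day and 1 for the interaction, where edgeR called 0; the cause was not tested. Over all features, 430 night against day calls in controls became 1108 with DESeq2 and 97 without the 3 libraries highest in photoreceptor markers, where fewer samples enter; under ALAN 214 became 657 with DESeq2, and over both treatments 902 became 1793. For ALAN against control DESeq2 called 41 in place of 6 at night, 138 in place of 1 by day and 154 in place of 1 over both times, and 56 in place of 0 for the interaction.

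Every reversed value belongs to a comparison that edgeR did not call; before the reversal RORA DN4406_c0_g1 gave 0.48 for ALAN by day and 0.38 over both times. With features of one name summed, the RORA sum gave 0.0378 between night and day under ALAN, where DN1311_c0_g1 alone gave −0.09. With the same sums, for ALAN at night the NR1D2 sum gave 0.0704 and the RORA sum −0.0403. There DN1975_c0_g1 alone gave −0.01 and DN4406_c0_g1 alone 0.27. Each sum was set beside the single features of its name. RORA DN1311_c0_g1 gave −0.0204 over both treatments with the replicate block. RORB by day gave −0.000773 with DESeq2, −0.000107 with RLE factors and −0.00252 with only the groups of the contrast. Leaving out 1 library at a time, RORA DN1311_c0_g1 ranged from −0.00728 to 0.397 for night against day in controls, −0.30 to 0.22 under ALAN and −0.0513 to 0.208 over both treatments. It ranged from −0.26 to 0.11 for ALAN at night, −0.12 to 0.40 by day and −0.10 to 0.16 over both times, and from −0.49 to 0.0323 for the interaction. RORA DN4406_c0_g1 ranged from −0.45 to 0.59 for ALAN at night, −0.37 to 0.90 by day, −0.0442 to 0.587 over both times and −0.93 to 0.65 for the interaction. RORB ranged from −0.0851 to 0.0577 by day and −0.14 to 0.0014 for the interaction, NR1D2 DN1975_c0_g1 from −0.0765 to 0.0999 for ALAN at night, Hr46 from −0.0439 to 0.304 by day and ARNTL2 DN3530_c0_g1 from −0.258 to 0.0765 for night against day under ALAN.

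NR1D1 by day rests on 8.75 to 38.02 expected counts in control libraries and 47.42 to 145.45 in ALAN libraries, and the 3 or 4 fish per group limit every interval.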

Other observations

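Besides NR1D1 and the unnamed group D feature DN6756_c0_g1, 10 of the 12 features whose ALAN brains lay below control brains in every night library and above them in every day library carry other names: TGFBR2, RABEP1, RHOQ, PHC2, MIS18A, GOLGA7B, WIPI1, KLHDC1, GOLIM4 and CARHSP1. They were picked by their values, so no test is given for them, and on CPM from library totals the pattern is held by 4 features.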
